A study of Mus musculus with 24 samples.

Results

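The effect of overnight corticosterone was described in the mouse hippocampus in the fifth hour of the resting period, on the 8 of 24 two-color microarrays that the sample labels assign to the second time point. These arrays hold RNA of 16 of the 48 mice of the series. All were Swiss-Webster males whose age is given as 12 weeks. Per the paper, they were moved to individual cages at about that age and left to habituate before treatment, so that they were older when sampled. Treated mice drank corticosterone (100 µg/ml) dissolved with hydroxypropyl-β-cyclodextrin (0.45%) during a dark phase of 12 h, and control mice drank the same cyclodextrin without the hormone. Each array compared 1 control mouse, labelled with Cy3, with 1 treated mouse, labelled with Cy5. RNA was not pooled, so that each group comprised 8 animals. Per the paper, control mice were siblings of treated mice and each group held several litters, so that animals share litters. The sample labels do not name the litters, and no fit accounts for them. No array had its dyes swapped. A constant preference of a probe for one dye cannot be told apart from a corticosterone effect within the fifth hour, but cancels in a difference between hours.

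Corticosterone, the main glucocorticoid of mice, acts through the glucocorticoid receptor (*Nr3c1*) and the mineralocorticoid receptor (*Nr3c2*), both abundant in the hippocampus. Receptors bound to the hormone enter the nucleus, where they raise or lower transcription of their target genes, among them genes that limit the response itself, such as *Fkbp5* and *Tsc22d3*. In the brain, neurons as well as astrocytes, oligodendrocytes and cells of blood vessels carry these receptors.

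Median spot intensities of the arrays ran from 90.0 to 104 in the Cy3 channel and from 136 to 167 in the Cy5 channel. Between 61.1 and 66.2% of the Cy3 spots and between 64.0 and 71.8% of the Cy5 spots of the 8 arrays were well above background, and none was saturated. Hippocampal markers were bright: the median control signal was 68893 for *Camk2a*, a kinase of excitatory neurons, 3691 for *Spink8*, a marker of CA1 pyramidal cells, and 2826 for *Prox1*, a transcription factor of dentate granule cells. Of markers of the choroid plexus and ependyma, 13 of 16 had a mean signal of 50 or more, and *Ttr*, which defines the choroid plexus, had a median control signal of 280.1. Signals of different probes are not a measure of relative amounts, so these values describe the probes and not the share of a tissue.

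In the fifth hour, many probes differed between treated and control mice, mostly by small amounts. *Plin4*, *Sult1a1* and *Pla2g3* were among the most raised genes, *Mt1*, *Mt2*, *Heph*, *Agt* and *Fam107a* were raised, and *Opalin*, *Sgk2*, *Aqp4* and the receptor gene *Nr3c1* were lowered. Of 56605 probes, 4879 (8.62%) displayed significantly higher and 5360 (9.47%) significantly lower signals after corticosterone by limma (adjusted p under 0.05; 10239 probes, 18.1% of those tested). A mean signal of 50 or more was reached by 32033 probes, of which 2989 (9.33%) were higher and 3434 lower (20.1% called). The split turned with the scaling: without normalization between arrays it was 5569 higher and 4274 lower over all probes, and in the brighter set 3899 higher and 2659 lower. With the log2 ratios of the authors the brighter set gave 4322 higher and 3318 lower.

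Each gene was then represented by its brightest probe. Among 15437 genes with a mean signal of 50 or more, 1770 were higher and 1886 lower, that is 11.5 and 12.2% (23.7% called in all). This split turned as well, with 2079 higher and 1382 lower genes without normalization between arrays and 2397 and 1828 with the ratios of the authors, while the share called ran from 22.4 to 27.4% between scalings. The median log2 change was 0.22 among the higher and -0.21 among the lower genes, and only 14 higher and 2 lower genes changed by a log2 value of 1 or more, the lower ones being *Opalin* and *Gbp4* (-1.05), which was lower on 6 of 8 arrays. A further count needed no model: the signals of the 8 treated mice lay wholly above or below those of the 8 control mice for 247 genes (1.6%), 156 of them higher (1.01%) and 91 lower (0.589%). The arrays of slides 1, 2 and 3 numbered 2, 3 and 3. With slide as a block, which leaves the fold changes as they are because both mice of an array share its slide, 10260 probes were called. Without slide 3 the number was 4184, without slide 1 6069, and with the 8 arrays fitted alone 6793.

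The largest increases belonged to enzymes and lipid proteins. *Sult1a1* displayed signals of 480.1 to 681 in control mice (median 582) and of 1883 to 3824 in treated mice (median 2657). Both groups were far apart, and the change of this sulfotransferase, which conjugates phenols and steroids, was 4.52-fold (log2 change 2.18 ± 0.11 SE, adjusted p = 2.40e-21, higher on 8 of 8 arrays). The means on slides 1, 2 and 3 were 2.45, 1.89 and 2.28. Its second probe gave 2.17. For *Plin4*, the probe signal intensity of control mice was between 116 and 161 with a median of 128, and that of treated mice between 351 and 1335 with a median of 891. All treated mice exceeded all control mice in this perilipin, a coat protein of lipid droplets (5.78-fold; log2 change 2.53 ± 0.19 SE, adjusted p = 1.88e-13, higher on 8 of 8 arrays). On slides 1, 2 and 3 it changed by 3.25, 2.03 and 2.55. The lowest, median and highest *Lao1* signals were 20.4, 29.7 and 51.1 in control mice and 65.4, 179 and 407 in treated mice. The signal of *Lao1*, an L-amino acid oxidase, was well above background in 1 of 8 control mice and in 8 of 8 treated mice, and the groups did not overlap (log2 change 2.55 ± 0.26 SE, adjusted p = 9.14e-09, higher on 8 of 8 arrays). With a control signal this close to background the size of the change is uncertain, and it ran from 1.43 to 3.74 between alternative settings.

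*Pla2g3* encodes a secreted phospholipase A2. Control signals of *Pla2g3* ran from 88.6 to 149.7 (median 128) and those of corticosterone-treated mice from 199 to 1152 (median 450). The ranges did not touch (log2 change 1.95 ± 0.21 SE, adjusted p = 4.68e-09, higher on 8 of 8 arrays). *Etnppl* displayed signals of 423 to 1583 in control mice (median 1047) and of 1131 to 3648 in treated mice (median 3171), with overlap of both groups. This phospholyase of phosphoethanolamine, found in astrocytes, was 3.03-fold higher (log2 change 1.60 ± 0.22 SE, adjusted p = 2.32e-07, higher on 8 of 8 arrays). For *Heph*, the probe signal intensity of control mice was between 279.5 and 484 with a median of 384, and that of treated mice between 748 and 1103 with a median of 947. Every treated mouse lay above every control mouse for this copper-dependent ferroxidase, which helps iron leave cells (log2 change 1.33 ± 0.098 SE, adjusted p = 1.30e-14, higher on 8 of 8 arrays). Its 2 probes with a signal of 50 or more were both higher. In control mice, *Agt* signals had a median of 702 (lowest 562, highest 869), and in treated mice a median of 1728 (lowest 1082, highest 2602). *Agt*, the angiotensin precursor made in the brain by astrocytes, rose without overlap of the groups (log2 change 1.22 ± 0.12 SE, adjusted p = 6.64e-11, higher on 8 of 8 arrays). Further genes among the 12 largest increases with the same direction on all 8 arrays were the glucuronosyltransferase gene *Ugt1a6b* (1.29), *Phyhd1* (1.14), which encodes a dioxygenase, the cell cycle inhibitor *Cdkn1a* (1.10) and *Fam107a* (1.01). *Gdpd3* (1.40) and *Hif3a* (1.05) were higher on 7 of 8 arrays.

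Among genes with the same direction on all 8 arrays, the largest decreases were smaller than the largest increases. Control signals of *Opalin* ran from 224 to 446 (median 329) and those of corticosterone-treated mice from 63.9 to 209.7 (median 121). The groups were separate for this glycoprotein of myelinating oligodendrocytes (log2 change -1.38 ± 0.15 SE, adjusted p = 1.29e-09, lower on 8 of 8 arrays). The value of *Opalin* rests on 1 named probe. Per the paper, its lasting *Opalin* change was seen with a probe for an intron-retaining variant, while a probe for the canonical variant did not show it. Which variant the probe used here binds was not tested. In control mice, *Sgk2* signals had a median of 261 (lowest 199, highest 351), and in treated mice a median of 125 (lowest 117, highest 189.5). Treated mice lay below control mice in this kinase related to *Sgk1* (log2 change -0.96 ± 0.11 SE, adjusted p = 1.48e-08, lower on 8 of 8 arrays). For *Aqp4*, the probe signal intensity of control mice was between 1906 and 2605 with a median of 2139.9, and that of treated mice between 949 and 1460.3 with a median of 1219.8. *Aqp4*, the water channel of astrocyte endfeet, was lower in every treated mouse than in any control mouse (log2 change -0.86 ± 0.091 SE, adjusted p = 8.37e-10, lower on 8 of 8 arrays), and its 3 probes with a signal of 50 or more were all lower. *S100a6* displayed signals of 1696 to 2261 in control mice (median 1859) and of 969 to 1332 in treated mice (median 1101). The calcium-binding protein gene *S100a6* likewise showed no overlap (log2 change -0.81 ± 0.082 SE, adjusted p = 1.94e-10, lower on 8 of 8 arrays). *Alpl*, the alkaline phosphatase of brain capillaries and other cells, was lower with its brightest probe (log2 change -0.82 ± 0.099 SE, adjusted p = 1.84e-08, lower on 8 of 8 arrays), whereas its other probe with a signal of 50 or more gave 0.17 (adjusted p = 0.156). The remaining genes of this group were the protease inhibitor *Serpinb1a* (-0.85), the sulfatase *Arsg* (-0.79), the peptidylarginine deiminase *Padi2* (-0.78), *Gm5089* (-0.74), *Tspan2os* (-0.73), *Mamdc2* (-0.71) and the dicarboxylate transporter *Slc13a3* (-0.69). The second probe of *Arsg*, also lower, gave -0.30 (adjusted p = 0.00823). The dim probe of *Tspan2os* stood clear of background in 6 of 8 mice of each group; it gave -1.06 to -0.31 between alternative settings and was not called in 2 of 27. A dim probe of *Padi2* moved the other way (0.46). It was well above background in 1 of 8 control mice, so that the size of this change is uncertain.

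**Figure D1:**
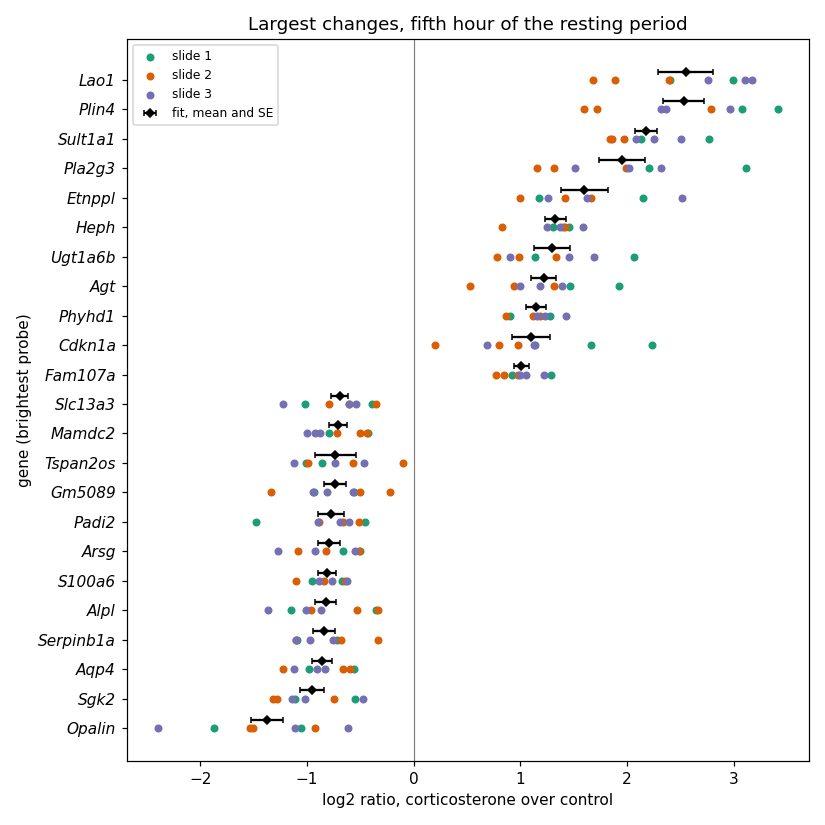
Log2 ratios of corticosterone over control for the 12 largest decreases and, except for 1 that is not shown, the 12 largest increases among genes with a signal of 50 or more, a significant change and the same direction on all 8 arrays; points are arrays colored by slide, and diamonds with bars, drawn slightly above them, are the fitted mean and SE. All points of a gene lie on one side of 0. The fitted change of *Plin4* is 2.53, and the 2.55 of *Lao1* rests on control signals close to background.

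Listed targets of the glucocorticoid receptor were higher more often than lower, while both receptors were lower. Several listed targets, among them *Sult1a1*, *Azin1*, *Gjb6* and *Map3k6*, are named in the paper as changed in this same experiment. The share of the list called is therefore not an independent test. Of 41 targets with a signal of 50 or more, 19 were higher and 0 lower (46.3% called), against 11.5 and 12.2% of all genes (23.7% called); between scalings 19 to 25 targets were higher and 0 lower. Their median log2 change was 0.20 against -0.0028 over all genes. Medians on slides 1, 2 and 3 were 0.30, 0.17 and 0.19. The 23.7% called among all genes under the main scaling is the background for the share called in each further list. *Mt1* displayed signals of 46257 to 60046 in control mice (median 52811) and of 93520 to 106713 in treated mice (median 97675). Control signals of *Mt2* ran from 39906 to 61099.9 (median 52429.5) and those of corticosterone-treated mice from 64883 to 90444 (median 70765). Neither metallothionein gene, both coding for small zinc-binding proteins, showed overlap of the groups; the log2 change was 0.89 ± 0.057 SE for *Mt1* and 0.498 ± 0.079 SE for *Mt2* (adjusted p = 5.84e-17 and 5.20e-06; higher on 8 of 8 arrays). For *Fam107a*, the probe signal intensity of control mice was between 6093 and 8416 with a median of 7138, and that of treated mice between 11565 and 15835 with a median of 14615. The gene encodes an actin-associated protein of astrocytes, and its groups were separate (log2 change 1.01 ± 0.074 SE, adjusted p = 5.72e-15, higher on 8 of 8 arrays). Both probes of *Fam107a* were about equally bright (mean signal 10041 and 9858), but the second gave 0.29 (adjusted p = 0.00976), so that the size of the change depends on the probe. *Hif3a*, an inhibitory partner in the hypoxia pathway, and the antizyme inhibitor *Azin1* (0.33) were higher as well.

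Values of *Fkbp5*, *Tsc22d3*, *Per1*, *Sgk1* and *Apoc3* were mixed. The lowest, median and highest *Fkbp5* signals were 2123, 2401 and 2744 in control mice and 2323, 3083 and 3988 in treated mice. The ranges overlapped for this co-chaperone, which lowers hormone binding of the receptor (log2 change 0.31 ± 0.081 SE, adjusted p = 0.00441, higher on 8 of 8 arrays), and its dimmer probe did not pass the test (0.12, adjusted p = 0.311). Between alternative settings the change of *Fkbp5* ran from 0.20 to 0.39 and was not called in 1 of 28. *Tsc22d3*, which encodes the leucine zipper protein GILZ, gave 0.20 with its brightest probe (adjusted p = 0.147) and 0.49 with the next (adjusted p = 0.00014). Control signals of *Per1* ran from 2341 to 2773 (median 2650.2) and those of corticosterone-treated mice from 2802 to 3628 (median 3007). The groups of this clock gene were close but separate (log2 change 0.20 ± 0.048 SE, adjusted p = 0.00114, higher on 8 of 8 arrays). *Sgk1* displayed signals of 3445 to 5240.3 in control mice (median 4679.9) and of 3336 to 5322 in treated mice (median 4553), and the ranges of this ion transport kinase overlapped (log2 change -0.0050 ± 0.072 SE, adjusted p = 0.971, lower on 5 of 8 arrays). Probes of *Apoc3*, an apolipoprotein gene, disagreed: the brightest gave 0.10 (adjusted p = 0.322), the next 1.06 ± 0.078 SE (adjusted p = 3.40e-14, higher on 8 of 8 arrays). A further dim probe gave 1.14 (adjusted p = 2.05e-09, higher on 8 of 8 arrays). It was well above background in 1 of 8 control mice, so that the size of its change is uncertain.

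For *Nr3c1*, the probe signal intensity of control mice was between 6462 and 8762 with a median of 7501, and that of treated mice between 4502 and 5872 with a median of 5052. Every treated mouse had less *Nr3c1* signal than any control mouse (log2 change -0.55 ± 0.057 SE, adjusted p = 2.74e-10, lower on 8 of 8 arrays), with -0.70, -0.36 and -0.63 on slides 1, 2 and 3. Its second probe gave -0.27 (adjusted p = 0.0114). In control mice, *Nr3c2* signals had a median of 12045 (lowest 10187, highest 14168), and in treated mice a median of 9731 (lowest 8513, highest 12392). The ranges overlapped (log2 change -0.24 ± 0.062 SE, adjusted p = 0.00262, lower on 7 of 8 arrays), and the dimmer probes gave -0.41 and -0.61. Of 17 receptor and chaperone genes, 3 were higher and 4 lower (41.2% called); the median, 0.0072, changed sign between scalings. Among chaperone genes, *Ptges3* (-0.19), which encodes the p23 co-chaperone, was lower.

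**Figure D2:**
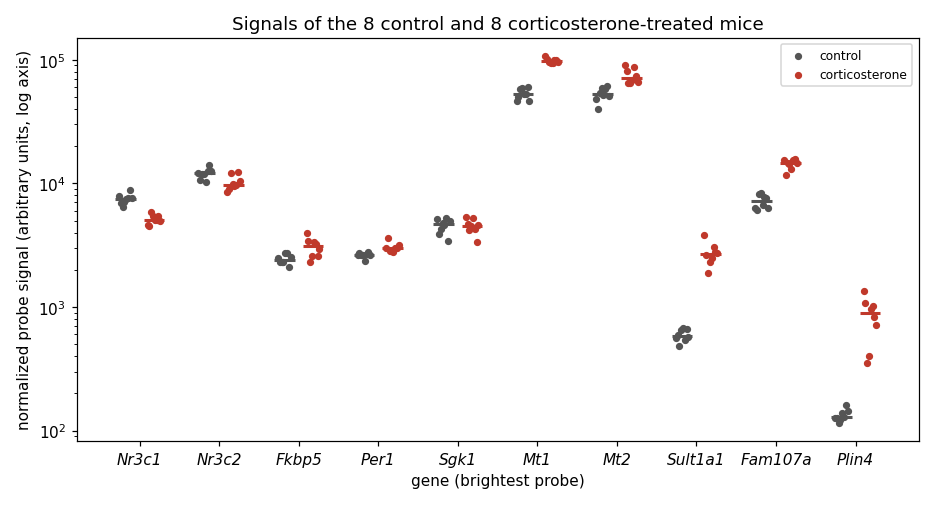
Normalized probe signal of the 8 control and the 8 corticosterone-treated mice, on a log axis, for receptors, targets and *Plin4*; points are animals and lines are medians. The groups are separate for *Nr3c1*, *Per1*, *Mt1*, *Mt2*, *Sult1a1*, *Fam107a* and *Plin4*, and overlap for *Nr3c2*, *Fkbp5* and *Sgk1*.

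Promoters of raised targets were searched for the letters of the glucocorticoid response element, since these genes moved together. Promoters of RefSeq genes (300 bases around the start of each gene, GRCm38.p6) were at hand for 17 of the 19 raised targets. The shorter palindrome (GNACA and TGTNC separated by 3 bases), read on both strands, occurred in 3 of these 17 genes and in 156 of the 32851 promoters searched (0.475%). List members are counted as genes and the whole set as promoters, of which a gene can have several. Promoters of 1 chromosome were not searched. Among targets without a call it occurred in 1 of the 20 genes with a promoter at hand, *Sgk1*. The longer one (AGAACA and TGTTCT separated by 3 bases) occurred in 3 of the promoters searched (0.00913%), among them that of *Sgk1*, which did not pass the test in the fifth hour, and in 0 of the raised targets. The longer motif contains the shorter one. Shown 5′ to 3′, with the match in capitals, are *Mt1* (chr8:94178839-94179138, plus strand), *Fam107a* (chr14:8309728-8310027, minus strand), *Map3k6* (chr4:133240568-133240867, plus strand) and *Sgk1* (chr10:21993640-21993939, plus strand, longer motif).
Mt1: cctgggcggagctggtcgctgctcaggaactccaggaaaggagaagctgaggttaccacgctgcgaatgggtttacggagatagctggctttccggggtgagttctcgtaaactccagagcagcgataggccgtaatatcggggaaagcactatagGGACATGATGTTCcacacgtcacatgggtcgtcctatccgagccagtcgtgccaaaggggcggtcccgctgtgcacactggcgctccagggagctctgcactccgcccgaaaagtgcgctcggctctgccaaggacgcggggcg
Fam107a: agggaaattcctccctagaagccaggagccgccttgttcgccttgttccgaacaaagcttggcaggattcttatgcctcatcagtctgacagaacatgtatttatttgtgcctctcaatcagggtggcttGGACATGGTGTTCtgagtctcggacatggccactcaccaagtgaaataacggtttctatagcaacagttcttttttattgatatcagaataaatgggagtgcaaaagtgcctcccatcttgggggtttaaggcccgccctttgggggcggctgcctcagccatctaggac
Map3k6: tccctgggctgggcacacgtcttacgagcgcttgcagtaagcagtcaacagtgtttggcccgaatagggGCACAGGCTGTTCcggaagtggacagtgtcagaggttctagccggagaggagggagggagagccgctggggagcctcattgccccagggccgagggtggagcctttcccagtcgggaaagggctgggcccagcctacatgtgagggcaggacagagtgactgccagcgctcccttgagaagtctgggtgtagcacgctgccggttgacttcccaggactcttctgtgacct
Sgk1: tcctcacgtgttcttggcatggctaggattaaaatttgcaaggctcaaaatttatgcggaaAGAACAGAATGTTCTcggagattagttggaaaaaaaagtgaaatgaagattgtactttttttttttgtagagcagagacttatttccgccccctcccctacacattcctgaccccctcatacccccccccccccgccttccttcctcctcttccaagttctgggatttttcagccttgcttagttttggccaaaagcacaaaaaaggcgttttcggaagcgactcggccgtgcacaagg
The log2 change of these genes was 0.89 for *Mt1*, 1.01 for *Fam107a* with its brightest probe, 0.70 for the kinase gene *Map3k6* and -0.0050 for *Sgk1*. A match is a description of letters and not of binding.

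Among lipid genes, those of droplets, oxidation and ketone bodies were higher more often than lower, and those of cholesterol synthesis lower more often than higher. Of 28 genes of lipid droplets, fatty acid oxidation and ketone bodies, 8 were higher and 1 lower (32.1% called, median 0.036). Control signals of *Pnpla2* ran from 1672 to 2116 (median 1767) and those of corticosterone-treated mice from 1982 to 3592 (median 2740.3). The ranges overlapped for this lipase, which releases fatty acids from droplets (log2 change 0.55 ± 0.074 SE, adjusted p = 1.93e-07, higher on 8 of 8 arrays). The thioesterase gene *Acot2* (0.22) was higher as well. Of 23 genes of cholesterol synthesis, 1 was higher and 8 lower (39.1% called), and the median of -0.12 lay below 0 on all 8 arrays. In control mice, *Idi1* signals had a median of 3257 (lowest 2849, highest 3724), and in treated mice a median of 2456 (lowest 2249, highest 2676). *Idi1* encodes the isomerase of isopentenyl units, and its ranges were separate (log2 change -0.41 ± 0.055 SE, adjusted p = 9.71e-08, lower on 8 of 8 arrays). For *Msmo1*, the probe signal intensity of control mice was between 10335 and 13194 with a median of 11290.2, and that of treated mice between 8948 and 9737 with a median of 9296. With this probe no treated mouse reached the control range of the sterol oxidase (log2 change -0.29 ± 0.038 SE, adjusted p = 2.76e-08, lower on 8 of 8 arrays), whereas the second probe gave -0.079 (adjusted p = 0.33). *Sqle* (-0.20), *Fdps* (-0.19) and *Hmgcs1* (-0.23), which encode further steps of the pathway, were lower as well.

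The sterol response element was searched as TCACNCCAC on both strands. It occurred in 1 of the 5 genes with a promoter at hand among 8 lowered genes of cholesterol synthesis and in 408 of the 32851 promoters searched (1.24%). The promoter holding it belongs to *Hmgcs1*, the cytosolic synthase of the pathway (chr13:119690101-119690400, GRCm38.p6, plus strand), and is shown with the match in capitals because the gene moved with its pathway.
Hmgcs1: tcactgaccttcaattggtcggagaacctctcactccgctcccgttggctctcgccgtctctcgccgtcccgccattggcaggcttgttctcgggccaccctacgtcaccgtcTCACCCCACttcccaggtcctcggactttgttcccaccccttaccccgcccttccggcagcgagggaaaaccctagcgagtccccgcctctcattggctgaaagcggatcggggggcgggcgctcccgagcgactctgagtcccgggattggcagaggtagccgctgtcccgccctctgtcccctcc
A promoter without these letters says only that they are not in this window.

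Genes of glucose use were higher more often than lower. Of 24 genes of glucose transport and glycolysis, 11 were higher and 2 lower (54.2% called), and the median of 0.11 was above 0 on all 8 arrays. *Slc2a3* (0.27), the glucose transporter of neurons, *Eno1* (0.26), an enolase, and *Pfkm* (0.17), a phosphofructokinase, were higher. *Slc16a1* displayed signals of 1991 to 2349 in control mice (median 2284) and of 1266 to 2001 in treated mice (median 1617). The ranges overlapped for this monocarboxylate transporter, which was lower (log2 change -0.46 ± 0.062 SE, adjusted p = 1.43e-07, lower on 8 of 8 arrays). Of 20 genes of glycogen metabolism, 5 were higher and 3 lower (40% called, median 0.026). For *Pygm*, the probe signal intensity of control mice was between 551 and 816 with a median of 658, and that of treated mice between 794 and 1399.7 with a median of 1227. Ranges of this glycogen phosphorylase overlapped (log2 change 0.80 ± 0.077 SE, adjusted p = 4.07e-11, higher on 8 of 8 arrays). Of 18 genes of fatty acid synthesis, 1 was higher and 2 lower (16.7% called, median 0.027); *Thrsp* (0.23) was higher and *Elovl6* (-0.14) lower, the latter without a call in 7 of 27 alternatives.

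Genes of the mitochondrial respiratory chain gave a median of -0.0031; of 52, 6 were higher and 4 lower (19.2% called), with *Uqcrc1* (0.20) of complex III higher and *Cox4i1* (-0.18) of complex IV lower. The latter was -0.030 without normalization between arrays (adjusted p = 0.834). Among 73 cytosolic ribosomal protein genes, 5 were higher and 24 lower (39.7% called) (median -0.056, sizes small). Control signals of *Rps21* ran from 50784 to 58648 (median 56578) and those of corticosterone-treated mice from 42285 to 48311 (median 45329). The groups were separate (log2 change -0.29 ± 0.035 SE, adjusted p = 4.81e-09, lower on 8 of 8 arrays). Between scalings the number of higher ribosomal genes ranged from 5 to 13, that of lower ones from 13 to 29 and the median from -0.062 to -0.011.

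Of 15 metallothionein and zinc transporter genes, 3 were higher and 1 lower (26.7% called, median -0.053), a share near that of all genes: *Mt1*, *Mt2* and *Mt3* (0.40), a metallothionein of the brain, were higher and *Slc30a1* (-0.22), a zinc exporter, was lower. The increase of *Mt3* rested on slide 3: slides 1, 2 and 3 gave 0.25, 0.13 and 0.77, and without slide 3 it was 0.18 (adjusted p = 0.367). Of 16 genes of iron handling, 4 were higher and 4 lower (50% called, median 0.075). *Heph* was the gene raised most. *Slc11a2* (0.19), an importer of iron, was higher with its brightest probe, while 2 others gave 0.052 (adjusted p = 0.528) and -0.046 (adjusted p = 0.628), and the exporter *Slc40a1* (-0.26) and transferrin *Trf* (-0.45) were lower. Of 20 genes of conjugation and flavin oxidases, 8 were higher and 2 lower (50% called, median 0.065), with *Sult1a1* and *Ugt1a6b* among the higher ones. *Lao1* is counted as higher despite control signals close to background (median 29.7), so that its mean signal of 50 or more rests on the treated mice. The myelin lipid enzyme *Ugt8a* (-0.62) was lower.

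Among 27 glutathione and antioxidant genes, 4 were higher and 3 lower (25.9% called, median -0.030). In control mice, *Maff* signals had a median of 49.2 (lowest 34.9, highest 71.2), and in treated mice a median of 94.8 (lowest 59.6, highest 167). This small Maf transcription factor was higher (log2 change 0.98 ± 0.15 SE, adjusted p = 3.22e-05, higher on 8 of 8 arrays), with overlapping ranges. Its probe was well above background in 6 of 8 control mice, and the change ran from 0.55 to 1.54 between alternative settings. Catalase *Cat* (-0.30) was lower. Of 28 growth brakes and cell cycle inhibitors, 6 were higher and 2 lower (28.6% called, median 0.054). Control signals of *Cdkn1a* ran from 101 to 139.8 (median 125) and those of corticosterone-treated mice from 144 to 598 (median 231). The groups did not overlap (log2 change 1.10 ± 0.18 SE, adjusted p = 5.32e-05, higher on 8 of 8 arrays); the mean was 1.95 on slide 1, 0.66 on slide 2 and 0.98 on slide 3. Of 17 apolipoprotein and lipid transfer genes, 2 were higher and 5 lower (41.2% called), with *Apod* (0.85), a lipid carrier of glia, raised and *Abcg1* (-0.19), a sterol exporter, lowered. The other raised member was *Etnppl*, which is in the list although it encodes a phospholyase. Of 17 prostaglandin and phospholipase A2 genes, 3 were higher and 3 lower (35.3% called); *Ptgds* (0.66), the synthase of prostaglandin D2, was higher on all 8 arrays.

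Astrocyte genes were not shifted in one direction. Of 17 astrocyte markers, 6 were higher and 3 lower (52.9% called), and the median was -0.0030, with a sign that changed between scalings. For *Aldh1l1*, the probe signal intensity of control mice was between 4269.9 and 5857 with a median of 4992, and that of treated mice between 6072 and 8582 with a median of 7122. The ranges of this folate dehydrogenase, a general astrocyte marker, were separate (log2 change 0.51 ± 0.047 SE, adjusted p = 5.39e-12, higher on 8 of 8 arrays). The transsulfuration enzyme *Cbs* (0.41) and the gap junction gene *Gjb6* (0.44) were higher as well, whereas *Aqp4* was lower. Of 21 endfoot, potassium and gap junction genes, 8 were higher and 4 lower (57.1% called); *Agt* and *Fam107a* were among the higher ones. Its median, 0.032, also changed sign between scalings. Summed astrocyte marker signals ranged from 170995 to 193567 in control and from 190084 to 204467 in treated mice, with *Aldoc* the brightest. In bulk tissue, fewer cells of a type and less RNA per cell cannot be told apart.

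Markers of oligodendrocytes were lower more often than higher. Of 22 myelin and oligodendrocyte markers, 3 were higher and 9 lower (54.5% called), and the median was -0.21, with -0.20, -0.33 and -0.15 on slides 1, 2 and 3. Array medians ran from -0.47 to 0.079, and only the array with 276 outlier spots lay above 0. Besides *Opalin*, the proteolipid plasmolipin *Pllp* (-0.49) and transferrin *Trf* (-0.45) were lower. *Mobp* (0.502), which also encodes a myelin protein, was higher, so that these genes did not all move one way. Summed signals of the list lay between 121933 and 194238 in control and between 108770 and 140036 in treated mice. Among 10 precursor markers, 1 was higher and 0 lower (10% called, median 0.084); the one raised was *Olig2* (0.26), without a call in 4 of 27 alternatives.

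Of 19 microglia markers, 1 was higher and 7 lower (42.1% called, median -0.046). *P2ry12* displayed signals of 426 to 1651 in control mice (median 1405) and of 281 to 1057 in treated mice (median 909). The overlap for this purinergic receptor of resting microglia came from 1 array (426 in its control and 281 in its treated mouse), the one with 276 outlier spots (log2 change -0.62 ± 0.14 SE, adjusted p = 0.000821, lower on 8 of 8 arrays). On the other 7 arrays *P2ry12* was 1177 to 1651 in control and 727 to 1057 in treated mice. *Laptm5* (-0.46) and *Gpr34* (-0.39) were lower too, and *Itgam* (0.27), the brightest of the list, was higher. The summed signal, which *Itgam* weighs on, was 79869 (median) in control and 84031 in treated mice. Of 20 endothelial markers, 4 were higher and 7 lower (55% called, median -0.019). *Flt1* (-0.47), a receptor of vascular growth factor, and *Itm2a* (-0.54) were lower. The other 2 probes of *Flt1* with a signal of 50 or more had the opposite sign, at 0.17 and 0.13, and did not pass the test.

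Markers of neighboring tissue moved little or unevenly. Of 12 mural cell markers, 0 were higher and 1 lower (8.33% called), the one lowered being *Rgs5* (-0.27). Of 12 leptomeningeal fibroblast markers, 0 were higher and 2 lower (16.7% called); their median was -0.27, and the slide medians were 0.034, -0.25 and -0.45. Control signals of *Col3a1* ran from 72.4 to 221 (median 109) and those of corticosterone-treated mice from 42.0 to 81.5 (median 64.7). The ranges of this collagen gene overlapped (log2 change -0.91 ± 0.19 SE, adjusted p = 0.00046, lower on 7 of 8 arrays). Of 13 choroid plexus and ependymal markers, 0 were higher and 1 lower (7.69% called), and the summed signal ranged from 5315 to 10083 in control and from 5313 to 8069 in treated mice, with *Enpp2* (-0.35), the one lowered, the brightest gene and without a call in 3 of 27 alternatives. Blood markers had a median of 0.26 with 0.29, 0.54 and -0.11 on slides 1, 2 and 3; of 7, 0 were higher and 1 lower (14.3% called), the one lowered being *Ptprc* (-0.48). Of 12 markers of neighboring regions, 2 were higher and 0 lower (16.7% called), the raised ones being *Lamp5* (0.45) and *Ramp3* (0.36). The part of dissection in these values was not tested.

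Among neurons, interneuron markers were higher more often than lower, with 7 to 9 higher between scalings. Of 14 such markers, 8 were higher and 1 lower (64.3% called); the median of 0.19 was above 0 on all 8 arrays, and slides 1, 2 and 3 gave 0.24, 0.14 and 0.12. For *Lamp5*, the probe signal intensity of control mice was between 1016 and 1252 with a median of 1179.5, and that of treated mice between 1389 and 1749 with a median of 1571. The groups were separate for *Lamp5*, a marker of neurogliaform interneurons that is also used for cortical layers (log2 change 0.45 ± 0.055 SE, adjusted p = 1.07e-08, higher on 8 of 8 arrays). The extracellular matrix protein *Reln* (0.28), the GABA-producing enzyme *Gad2* (0.21), the vesicular GABA transporter *Slc32a1* (0.24) and the peptides *Sst* (0.16) and *Vip* (0.31) were higher, and *Cck* (-0.100) was lower. *Vip* was not called in 12 of 27 alternatives and *Sst* in 3 of 27. Of 16 pyramidal markers, 3 were higher and 0 lower (18.8% called, median 0.028). *Spink8* displayed signals of 3308 to 4105 in control mice (median 3691) and of 4564 to 5695 in treated mice (median 5400). No overlap was found for *Spink8* (log2 change 0.502 ± 0.051 SE, adjusted p = 1.48e-10, higher on 8 of 8 arrays). Of 14 granule cell markers, 1 was higher and 2 lower (21.4% called), with *Pdzd2* (0.46) higher and *Plk5* (-0.34) lower; the sign of the median (-0.034) changed between scalings.

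Genes of transmitter receptors were lower more often than higher. Of 35 glutamate and GABA receptor genes, 1 was higher and 10 lower (31.4% called), and the median of -0.067 was below 0 on all 8 arrays. *Gabra2* (-0.28), *Gabrd* (-0.24) and *Grm3* (-0.32) were lower, and *Gabrb1* (0.21) was the one higher. Of 27 synaptic vesicle and SNARE genes, 9 were higher and 5 lower (51.9% called, median 0.12). Control signals of *Bsn* ran from 9869 to 13864 (median 11391) and those of corticosterone-treated mice from 13881 to 16988 (median 14705). The active zone protein bassoon was higher with its brightest probe, without overlap (log2 change 0.38 ± 0.062 SE, adjusted p = 8.96e-06, higher on 8 of 8 arrays), while its other probe gave -0.15 and did not pass the test. *Syt4* (-0.27), a synaptotagmin, was lower. Probes of *Rims1* disagreed, at 0.25 and -0.23. Of 18 neuropeptide genes, 4 were higher and 1 lower (27.8% called, median 0.031), with *Pnoc* (0.18), the nociceptin precursor, among the higher ones, though without a call in 4 of 27 alternatives. The median of this list ran from 0.012 to 0.11 between scalings. Slides 1, 2 and 3 gave 0.18, 0.012 and -0.10.

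Of 27 neurotrophin and growth factor genes, 5 were higher and 4 lower (33.3% called, median 0.067). *Ptn* displayed signals of 6819.8 to 9324 in control mice (median 7251) and of 4357 to 6678 in treated mice (median 5090.4). Pleiotrophin, a growth factor bound to heparan sulfate, displayed no overlap (log2 change -0.55 ± 0.072 SE, adjusted p = 9.31e-08, lower on 8 of 8 arrays). *Fgf1* (0.28) and *Fgfr3* (0.31) were higher. Of 25 Notch and neurogenesis genes, 2 were higher and 4 lower (24% called, median -0.096); the Notch modifier *Lfng* (0.35) was higher and the replication gene *Mcm2* (-0.30) lower.

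Clock and activity genes were called at shares near that of all genes. Of 18 clock genes, 4 were higher and 1 lower (27.8% called, median 0.12); besides *Per1*, *Npas2* (0.25) and *Tef* (0.13) were higher, and *Clock* (-0.17) was lower. *Tef* and *Clock* passed the test only with their brightest probe. *Npas2* was not called in 7 of 27 alternatives and *Tef* in 6 of 28. Of 19 immediate early genes, 3 were higher and 1 lower (21.1% called, median 0.10). For *Junb*, the probe signal intensity of control mice was between 3526 and 5259 with a median of 4583, and that of treated mice between 4737 and 7187 with a median of 6187. Ranges of this activator protein subunit overlapped (log2 change 0.41 ± 0.078 SE, adjusted p = 9.38e-05, higher on 8 of 8 arrays). *Egr3* was lower (-0.15) but not called in 6 of 28 alternatives. Among 21 genes of endoplasmic reticulum stress, 6 were higher and 2 lower (38.1% called, median 0.082), with *Dnajb9* (0.24), *Sel1l* (0.23) and *Ppp1r15a* (0.17) higher. The second, dimmer probes gave -0.042 (adjusted p = 0.865) for *Dnajb9* and 0.0035 (adjusted p = 0.974) for *Sel1l*. The probes of *Atf4* had opposite signs (0.25 and -0.16). Of 20 heat shock and cold-induced genes, 5 were higher and 0 lower (25% called, median 0.056), *Hspa1a* (0.33) and *Hspa1b* (0.40) among the higher ones, the latter without a call in 3 of 27 alternatives.

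Genes of immune signaling moved both ways. Of 23 genes of NF-kappaB and cytokine signaling, 3 were higher and 5 lower (34.8% called, median -0.042); between scalings the higher ones numbered 3 to 5. In control mice, *Vcam1* signals had a median of 1805 (lowest 1591, highest 1997), and in treated mice a median of 1224 (lowest 1092, highest 1415). The groups were separate for this adhesion molecule of vessels (log2 change -0.53 ± 0.058 SE, adjusted p = 1.78e-09, lower on 8 of 8 arrays). The subunit *Rela* (-0.24) was lower, and the receptor *Il6ra* (0.32) and *Lrg1* (0.66) were higher. Of 28 interferon-stimulated genes, 0 were higher and 2 lower (7.14% called); the lowered ones, *Gbp3* (-0.88) and *Gbp2* (-0.63), encode guanylate-binding proteins and were each not called in 4 of 27 alternatives. Their array medians varied more than those of other pathways, from -0.64 to 0.87, with 0.63, -0.32 and -0.30 on slides 1, 2 and 3.

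**Figure D3:**
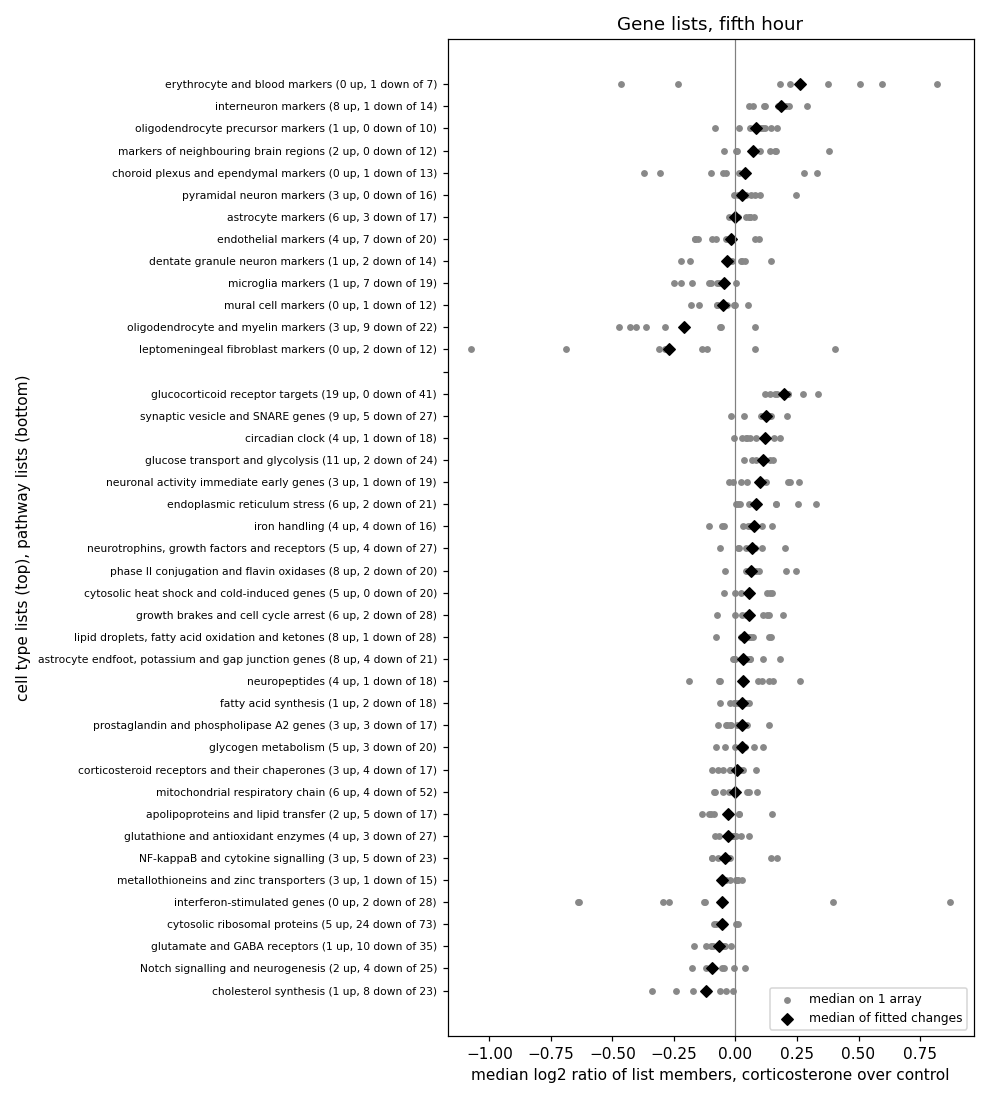
Median log2 ratio of each gene list on each of the 8 arrays (gray points) and median of the fitted changes (black diamonds), with the numbers of members called higher and lower beside the name. Glucocorticoid receptor targets (0.20) and interneuron markers (0.19) lie above 0 and cholesterol synthesis (-0.12) below 0 on every array.

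The fifth hour was then compared with the first and the ninth, where a constant dye effect cancels. A small set of known targets was raised in the first hour and near control levels in the fifth, and for other genes the effect differed between the fifth and the ninth hour. The effect differed between the fifth and the first hour for 22 of 56605 probes (0.0389%), 2 with a higher and 20 with a lower value at the fifth hour. Between the ninth and the fifth hour it differed for 47 probes (0.083%), 6 higher and 41 lower at the ninth. At an unadjusted p under 0.05 the numbers were 2528 and 2938, where 5% of the probes tested is 2830.2. Without slide 1, limma called 0 probes as differing between the ninth and the fifth hour (2533 at an unadjusted p under 0.05), and without slide 3 the numbers were 7 and 6.

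Log2 changes of *Mt2* in the first, the fifth and the ninth hour were 1.499, 0.498 and -0.32, a decline from the first to the fifth hour (difference -1.001 ± 0.11 SE, adjusted p = 1.72e-07) and again to the ninth (difference -0.82 ± 0.11 SE, adjusted p = 4.69e-05). For *Sgk1* they were 0.71, -0.0050 and -0.12 (difference -0.72 ± 0.10 SE, adjusted p = 2.50e-05 from the first to the fifth hour). *Nfkbia*, the inhibitor of NF-kappaB, gave 0.76, -0.042 and -0.27 (difference -0.81 ± 0.11 SE, adjusted p = 1.58e-05). *Pdk4*, which restrains glucose oxidation, gave 0.85, -0.022 and -0.033 (difference -0.88 ± 0.12 SE, adjusted p = 2.50e-05), and *Plekhf1*, an endosomal protein gene, 1.12, -0.034 and -0.27 (difference -1.15 ± 0.14 SE, adjusted p = 1.74e-06). All 4 of these genes were raised in the first hour and did not pass the test in the fifth.

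From the fifth to the ninth hour the effect on *Plin4* fell, with changes of 3.47, 2.53 and 0.75 at the 3 hours (difference -1.78 ± 0.27 SE, adjusted p = 0.000304). *Gpt2*, an alanine aminotransferase, gave 0.55, 0.36 and -0.090 (difference -0.45 ± 0.075 SE, adjusted p = 0.000653) with its brightest probe. *Arhgap39* gave 0.31, 0.25 and -0.19 (difference -0.44 ± 0.070 SE, adjusted p = 0.000304), and the helicase gene *Dhx33* 0.23, 0.065 and -0.57 (difference -0.63 ± 0.090 SE, adjusted p = 6.24e-05), which did not pass the test in the fifth hour (adjusted p = 0.499). With its brightest probe, the decrease of *Nr3c1* was -0.54, -0.55 and -0.18 and became smaller between the fifth and the ninth hour (difference 0.36 ± 0.080 SE, adjusted p = 0.0236). The second probe of *Nr3c1* did not pass the test of this difference. The difference of the brightest probe between the first and the fifth hour (-0.0067 ± 0.080 SE) did not pass the test.

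**Figure D4:**
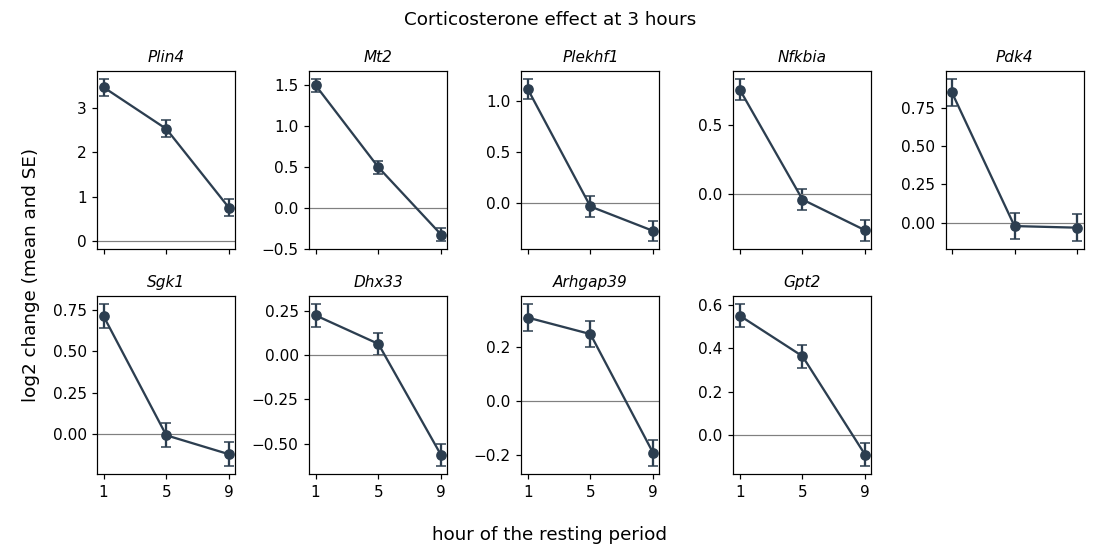
Log2 change of corticosterone-treated against control mice in the first, the fifth and the ninth hour for the genes with the most significant differences between hours; points and bars are the fitted mean and SE (8 mice a group at each hour), and each panel has its own vertical range. *Sgk1*, *Pdk4*, *Nfkbia* and *Plekhf1* lie near 0 in the fifth hour, whereas *Plin4* still lies at 2.53.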

How the data were processed

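Per the file headers, the scanner files deposited by the authors hold median pixel intensity and local background of each spot in both channels, without normalization (Agilent Feature Extraction). The series table of the authors gives 1 log2 ratio (Cy5 to Cy3) a probe and array; normexp at an offset of 50 with loess and no further step came closest to it (median absolute log2 difference 0.00121, 0.0101 after quantile normalization).

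Intensities were read in R 4.3.3 (data.table version 1.17.8, jsonlite version 2.0.0) and analyzed with limma 3.58.1 and statmod 1.5.0. The normexp background correction used an offset of 50 where p values were computed and none for fold changes, SE and signals. Loess within arrays gave 3671 control spots weight 0, quantile normalization between arrays followed, control spots were then left out, outlier spots were missing (77 probes lacked a value on an array and were fitted without it), and copies of a probe were averaged. All 24 arrays entered 1 separate channel fit of limma with 6 groups (intraspot correlation 0.279, prior degrees of freedom 4.89), with Benjamini and Hochberg adjustment over 56605 probes and significance at an adjusted p under 0.05. Signals are normalized and without offset; SE comes from the fit without offset. The steps were tested on simulated data.

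Transcript identifiers named 34566 probes (23787 genes, RefSeq, GRCm38.p6); a gene is represented by its brightest probe, and 9 listed genes had no named probe. Named, except for some that are not described, are the 12 largest increases and 12 largest decreases with the same direction on all 8 arrays, up to 4 members of each of 28 pathway and 13 cell type lists with the smallest adjusted p, the 5 genes with the smallest adjusted p of each difference between hours, and *Nr3c1*, *Nr3c2*, *Fkbp5*, *Per1*, *Tsc22d3*, *Sgk1*, *Sult1a1*, *Etnppl*, *Apoc3*, *Lao1*, *Plin4*, *Mt1*, *Mt2*, *Cdkn1a* and *Maff*; *Camk2a*, *Prox1*, *Ttr*, *Gbp4*, *Gdpd3*, *Hif3a*, *Map3k6*, *Hmgcs1*, *Aldoc*, *Itgam*, *Cck* and *Gabrb1* lie outside this rule and were chosen after their values were seen. The arrays and lists were chosen with earlier results of these data known. Promoters were searched and figures drawn with Python 3.11.15 and matplotlib 3.10.9; a metal response element core, TGCNCNC, was also searched but occurred in 51% of promoters and is not shown.

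A total of 3 treatments of control spots were run: the one above, leaving them out before quantile normalization, and full weight in loess. The last 2 are alternatives added after the data were seen, and the first of these was tried because earlier counts for the same data were known; the setting above was kept because it had been chosen before that trial. Other alternatives were the offset, background correction, median centring, no normalization or Aquantile between arrays, processed signals, filters on dim probes, the array or slide as a block, the 8 arrays alone, variance trend, outlier spots kept, the ratios of the authors, the mean over probes, and leaving out each slide or each of the 8 arrays.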

Additional observations from a re-analysis of the deposited data

Results flagged for a closer look

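Among the 8 log2 ratios of each gene named by the rule, the 8 array medians of each list and the array measures, 10 of 202 sets held 1 array that stood apart from the other 7 by Dixon's criterion; chance flags about 1 in 20 groups. Among genes named outside the rule it was 1 of 12 sets. The value of the array that stood apart was as follows for *Heph* (0.83, with a median of 1.38), *Padi2* (-1.48, with a median of -0.68), *Thrsp* (0.38, with a median of 0.22), *Slc30a1* (-0.011, with a median of -0.24), *Slc40a1* (-0.83, with a median of -0.26), *Hspa1a* (0.80, with a median of 0.30), *Rims1* (0.021, with a median of 0.25), *Reln* (0.66, with a median of 0.24) and *Prox1* (-0.69, with a median of 0.0020). For pyramidal neuron markers, 1 array median was 0.25 (median 0.054), and 1 array had 276 outlier spots (median 116).

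The corticosterone effect differed between hours by a test of the difference for several named genes. From the first to the fifth hour the log2 change shifted for *Mt2* (-1.001), *Plekhf1* (-1.15), *Nfkbia* (-0.81), *Pdk4* (-0.88), *Sgk1* (-0.72) and *Tsc22d3* (-0.73). From the fifth to the ninth hour it shifted for *Plin4* (-1.78), *Alpl* (0.64), *Mt1* (-0.46), *Nr3c1* (0.36), *Fkbp5* (-0.58), *Mt2* (-0.82), *Fgfr3* (-0.36), *Fgfrl1* (0.52), *Gjb6* (-0.52), *Pdzd2* (-0.49), *Dhx33* (-0.63), *Arhgap39* (-0.44), *Gpt2* (-0.45), *Tsc22d3* (-0.78) and *Hif3a* (-1.75). The log2 change of *Hif3a* in the ninth hour was -0.71. Negative shifts mark an effect that was lower at the later hour.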

How the results depend on the processing

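The fifth-hour call count of 10239 was 6069 without slide 1, 4184 without slide 3 and 6793 with the 8 arrays alone, all with fewer arrays in the fit; at a signal of 50 or more the count of 6423 was 3855 and 2797 without slides 1 and 3. Leaving out 1 array at a time gave 7872 to 10612 and 4864 to 7064. The 22 differences between the fifth and the first hour became 44 and 34 with either filter on dim probes (fewer probes tested), 7 without slide 3, and 18 to 36 without 1 array. The 47 between the ninth and the fifth hour became 95 and 87 with the filters, 0 and 6 without slides 1 and 3, and 30 to 72 without 1 array; the highest and lowest come from leaving out replicate 3 and replicate 1. Control spots out before quantile normalization, chosen after seeing the data, gave 5095 higher and 5176 lower probes, and full weight in loess, likewise chosen after, 4915 and 5405.

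Of the values of named genes under alternatives, 4066 kept direction and side of the threshold or moved by less than the spread between arrays, 169 were no longer called (most often *Nectin3*, 15 of 28, and *Vip*, 12 of 27 alternatives), 15 moved further and 14 changed sign; the cause was not tested. *Plekhf1* (-0.034) was 0.082 with processed signals, 0.037 without slide 2 and 0.051 without slide 3. Without slide 3, *Nfkbia* was 0.021 and *Sgk1* 0.080, and without slide 2 *Pdk4* was 0.012. Leaving out 1 array at a time gave -0.12 to 0.053 for *Plekhf1*, -0.048 to 0.015 for *Pdk4*, -0.045 to 0.035 for *Sgk1* and -0.076 to -0.027 for *Nfkbia*. None of these values passed the test. Leaving out 1 array separated the groups of *Etnppl*, *Pnpla2*, *Slc16a1*, *Pygm*, *Maff*, *Junb* and *Col3a1*, as for *P2ry12*. A further probe with a signal of 50 or more did not pass the test for *Eno1*, *Thrsp*, *Gpr34*, *Pdzd2*, *Fgf1*, *Junb* and *Gpt2*. Among the dimmer genes, *Gm5089* ran from -0.90 to -0.45 and *Col3a1* from -1.09 to -0.55 (not called in 1 of 27). The mean over the probes of *Rims1* was -0.051. A total of 24572 probes had a mean signal under 50, where ratios rest on differences close to background, and the number of arrays limits the precision.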
